A study of Mus musculus with 6 samples.

Results

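The apolipoproteins analysed here were Apoa1, Apoa2, Apoa4, Apoa5, Apob, Apoc1, Apoc2, Apoc3, Apoe and Apoh, the protein components of plasma lipoproteins that liver cells are known to make. They were taken by gene symbol from tables of 25078 genes, and all 10 were found. The tables came from RNA-seq, after ribosomal RNA depletion, of Hepa1-6, an established mouse hepatoma line from the C57/L strain. The study asked what loss of midnolin does to the growth of these liver cancer cells. One library was from parental cells without treatment (wt), 2 were from cells that carried a lentiviral scramble vector (scr 25-2 and scr 50-1), and 3 were from cells with a lentiviral shRNA vector against midnolin (knockdown 25-3, 50-2 and 50-5). Transduced cells had been selected with puromycin and isolated as colonies of single cells by limiting dilution. The titles call the knockdown libraries KO, and they do not explain the numbers 25 and 50. The paper describes the sequenced knockdown cells as different single-cell clones, sh1 and sh2, so the spread within knockdown includes differences between clones. Which library is which clone is not in the labels, and the paper speaks of 1 scr control clone without saying whether both scr libraries came from it, so the tests below measure only the spread between these libraries.

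Apolipoproteins hold lipoprotein particles together, activate or inhibit the enzymes that remodel them, and bind the receptors that take them up. In the liver, Apob is loaded with lipid in the endoplasmic reticulum and secreted as very low-density lipoprotein, while Apoa1 and Apoa2 form high-density lipoprotein. The small exchangeable apolipoproteins of the Apoc group and Apoe move between particles in plasma.

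In these cells 1 of the 10 members stood far above the other members. Apoe, the ligand through which remnant particles bind receptors such as Lrp1, had an RPKM (reads per kilobase of exon, scaled to library size) between 818 and 1527 in the 6 libraries. Apob was the next member in the knockdown libraries and Apoc1 the next in wt. Apoc1 fell in the knockdown libraries to between 1 and 4 reads, from 18 and 37 reads in scr and 827 in wt. Apob was higher in each knockdown library than in both scr libraries, but the knockdown libraries differed from one another by more than 10-fold. Apoa1, Apoa5 and Apoh were low everywhere, and no read was counted on Apoa4 or Apoc3.

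Each library held from 25586301 to 33119710 counted reads, of which the ribosomal transcript Rn45s took 10.1% to 13.1%. Midn, the targeted gene (chromosome 10, 80148272 to 80158368 of mm10), had an RPKM of 60.5 in wt, 59.6 and 50.8 in scr 25-2 and 50-1 against 20.3, 21.8 and 22.1 in knockdown 25-3, 50-2 and 50-5. It fell in knockdown (log2 fold change -1.38 with a standard error, SE, of 0.133 and an FDR of 0.00777). The FDR here and below is the p of edgeR's quasi-likelihood test after Benjamini-Hochberg adjustment over all genes tested. The call was lost without knockdown 50-2 (FDR 0.0525). Genes whose RPKM exceeded 1 in any of the 5 compared libraries were tested, 11577 in all, and 1230 of them (10.6%) passed an FDR of 0.05 and a 1.5-fold change. Alb, the albumin gene that defines hepatocytes, had an RPKM of 2424 in wt, 1877 and 2804 in scr against 335.8, 62.7 and 20.9 in knockdown (log2 fold change -4.08, FDR 0.0712), and it was called in 5 of 16 alternatives (without knockdown 25-3, with wt added to the controls, with DESeq2 and with both limma fits, FDR 0.0128 to 0.0447). Afp, the fetal albumin relative that hepatoma cells make, had 1430 in wt, 302.3 and 533.4 in scr against 211.8, 50.9 and 33.2 in knockdown (FDR 0.143, and 0.0411 without knockdown 25-3). The summed RPKM of 11 hepatocyte and hepatoma markers, of which Serpina1a was at 0 in every library, was 5576 in wt, 3320 to 4257 in scr and 964.1 to 1911 in knockdown. In these bulk libraries, fewer cells of a kind and less RNA per cell cannot be told apart.

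**Figure D1:**
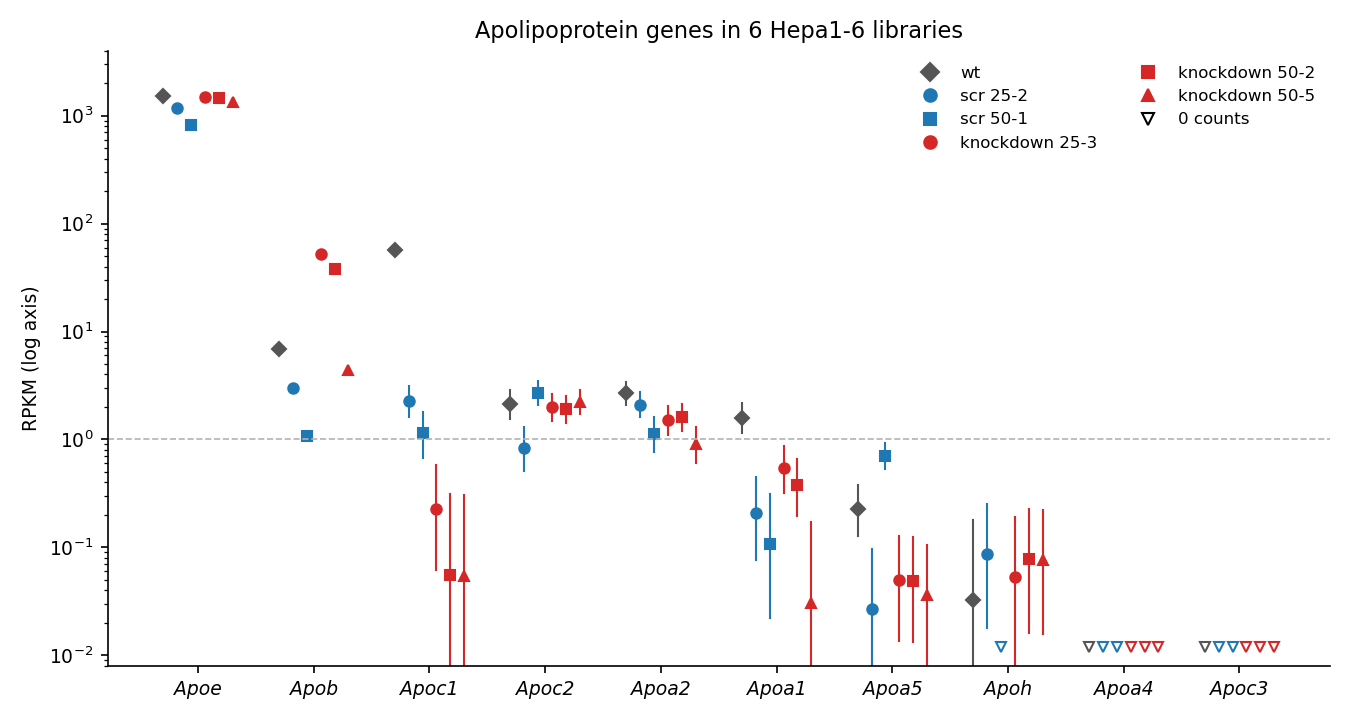
Level of each apolipoprotein in every library, as RPKM on a log axis, with 1 point per library coloured by group and a line for its 95% counting interval. Open triangles at the foot of the axis are libraries without reads, and the dashed line marks an RPKM of 1. Apoe lies between 818 and 1527 in all 6 libraries, Apob spans 1.07 to 52.2, and Apoc1 runs from 57.3 in wt down to about 0.05 in knockdown.

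The filter on level left 5 members to test (Apoa2, Apob, Apoc1, Apoc2 and Apoe). Of these, 1 fell (Apoc1) and 0 rose by the thresholds above, beside the 10.6% called among all genes tested. The other 4 tested members had an FDR of 0.0822 or more. All 3 knockdown libraries lay above both scr libraries for Apob and Apoe and below both for Apoc1, so 3 of 5 tested members did not overlap between the groups. Among all genes tested, 50.2% did not overlap, so the members were near that background. The median log2 fold change of the 5 tested members was 0.19, against -0.0097 over all genes tested.

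Apoe and Apob had many reads in all 6 libraries, and the sequences just before their annotated starts are shown. Apoc1, the member that was called, had no promoter entry. No link between these sequences and the levels was tested. The stretches come from the RefSeq promoter table for GRCm38.p6, are written 5′ to 3′ on the strand of the gene, and end at the base before the start that GENCODE M21 gives. The Apob stretch is chr12:7977427-7977647 on the plus strand, with a TATAAA box and a match to TTGCNNAA, read on the other strand as TTTGGCAA, in capitals. The Apoe stretch is chr7:19699189-19699438 on the minus strand and holds none of the 8 motifs searched.
Apob: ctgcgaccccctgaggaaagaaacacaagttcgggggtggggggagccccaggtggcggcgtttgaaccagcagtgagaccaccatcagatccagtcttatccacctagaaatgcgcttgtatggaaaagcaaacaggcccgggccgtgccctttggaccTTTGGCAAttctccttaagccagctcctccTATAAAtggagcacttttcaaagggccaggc
Apoe: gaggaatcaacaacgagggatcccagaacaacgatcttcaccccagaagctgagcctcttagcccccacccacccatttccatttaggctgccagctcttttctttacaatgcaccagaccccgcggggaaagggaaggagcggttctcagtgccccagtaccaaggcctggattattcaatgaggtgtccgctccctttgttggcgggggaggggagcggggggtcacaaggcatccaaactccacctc
In the Apob stretch the TATAAA lay 31 bases and the TTTGGCAA 61 bases before the start, each counted from its first base. The motifs were searched on both strands as TATAAA (the TATA box), CCAAT (the CCAAT box), AGGTCA (the half-site of nuclear receptors), TGTTTAC (forkhead factors), GTTAAT (the half-site of Hnf1 factors), CAAAGT (the core of Hnf4a sites), CACGTG (an E-box) and TTGCNNAA (C/EBP factors), in the 250 bases before each RefSeq start. The matches in capitals do not overlap each other. TATAAA is in 12.4% of the 32851 promoters of the table and TTGCNNAA in 9.56%. Of the 10 members, 8 had an entry there, among which TATAAA was in 2 (Apoa5 and Apob), AGGTCA in 3 (Apoa2, Apoc2 and Apoh; 14.0% of all promoters) and TTGCNNAA in 2 (Apoa2 and Apob). CAAAGT was in 2 (Apoa4 and Apoc2; 12.6% of all), and CCAAT (Apoa2; 33.8%), TGTTTAC (Apoh; 3.17%), GTTAAT (Apoc2; 6.43%) and CACGTG (Apoa5; 6.02%) were in 1 each. These are matches of letters, and no binding was measured here.

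Apob (chromosome 12, 7977677 to 8016839, plus strand) encodes the structural protein that wraps each very low-density and low-density lipoprotein particle. Its RPKM was 6.82 in wt, 3.00 in scr 25-2, 1.07 in scr 50-1, 52.2 in knockdown 25-3, 37.8 in knockdown 50-2 and 4.37 in knockdown 50-5. The highest knockdown library was 11.9 times the lowest, and the higher scr library was 2.79 times the lower. Knockdown 25-3 and 50-2 thus stood apart from the other 4 libraries, while knockdown 50-5 lay between scr and wt. The means were 2.03 ± 1.36 (SD, n = 2) in scr and 31.5 ± 24.5 (SD, n = 3) in knockdown. The log2 fold change was 3.93 (SE 1.16, edgeR FDR 0.0822), so Apob was not called. Without knockdown 50-5, which leaves the 4 libraries for which the paper tabulates RPKM, the log2 fold change was 4.45 (SE 0.60, FDR 0.0431) and Apob was called, as were 3.01% of the 11482 genes tested in that fit. By DESeq2 on all 5 libraries Apob was also called (log2 fold change 3.94, FDR 0.00721). That fit called 2322 of the 11577 genes tested, against 1230 in the main fit.

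The spread of Apob among the knockdown libraries was far beyond counting error. The counts were 22927, 17002 and 2011 in knockdown 25-3, 50-2 and 50-5, against 1227 and 425 in scr and 2473 in wt. Relative to knockdown 50-5, the normalised ratio was 11.9 in knockdown 25-3 (95% interval 11.4 to 12.5) and 8.66 in knockdown 50-2 (8.27 to 9.07). Knockdown 50-5 was 2.13 times scr (2.00 to 2.28) and 0.641 times wt (0.604 to 0.680). These intervals are exact binomial ones that cover counting error only and not the spread between libraries. In these libraries Midn had an RPKM of 20.3 to 22.1 and Alb of 335.8, 62.7 and 20.9. The part of either in the spread of Apob was not tested. By RPKM, Apob ranked 1272 and 1921 among the genes of knockdown 25-3 and 50-2, and between 7268 and 10554 in the other 4 libraries.

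Apoc1 (chromosome 7, 19689480 to 19692659, minus strand) encodes a small exchangeable apolipoprotein of very low-density and high-density lipoprotein. Its RPKM was 57.3 in wt, 2.27 and 1.14 in scr 25-2 and 50-1 against 0.229, 0.0559 and 0.0545 in knockdown 25-3, 50-2 and 50-5. These rested on 827 reads in wt, on 37 and 18 in scr and on 4, 1 and 1 in knockdown. No group overlapped another, and the order wt, scr, knockdown held in every library. The means were 1.70 ± 0.798 (SD, n = 2) in scr and 0.113 ± 0.10 (SD, n = 3) in knockdown, a log2 fold change of -3.86 (SE 0.714, edgeR FDR 0.0303). Over the pooled reads, scr was 15.3 times knockdown, with a counting interval from 6.62 to 43.6. Apoc1 passed the filter on level only through the scr libraries, where it was high. Its call was lost without any 1 of the knockdown libraries (FDR 0.0631 without 25-3, 0.126 without 50-2 and 0.0996 without 50-5).

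On the RPKM scale, the larger step in Apoc1 lay between wt and scr, although as folds the counting intervals of both steps overlapped. The wt library was 33.4 times the pooled scr libraries (counting interval 25.4 to 44.7), and 513 times the pooled knockdown libraries (235 to 1401). With 1 wt library this difference has no replicate check, and it shares the scr libraries with the comparison of knockdown and scr.

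Apoe (chromosome 7, 19696244 to 19699188, minus strand) had an RPKM of 1527 in wt, 1178 and 818 in scr 25-2 and 50-1 against 1500, 1451 and 1327 in knockdown 25-3, 50-2 and 50-5. It was among the 23 genes with the highest RPKM in every library, at rank 9 in wt, 12 and 23 in scr and 6 in each knockdown library. Its reads made up 0.247% of the counts in wt, 0.191% and 0.124% in scr, and 0.244%, 0.225% and 0.210% in knockdown. The scr libraries were lower than the other 4, and they differed from each other by more than the knockdown libraries did. The means were 997.6 ± 255 (SD, n = 2) in scr and 1426 ± 89.4 (SD, n = 3) in knockdown. The log2 fold change was 0.50 (SE 0.195, edgeR FDR 0.148), which did not pass. Without scr 25-2, which leaves a single scr library, it was 0.81. With wt counted as a control beside scr it was 0.28 (FDR 0.431).

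**Figure D2:**
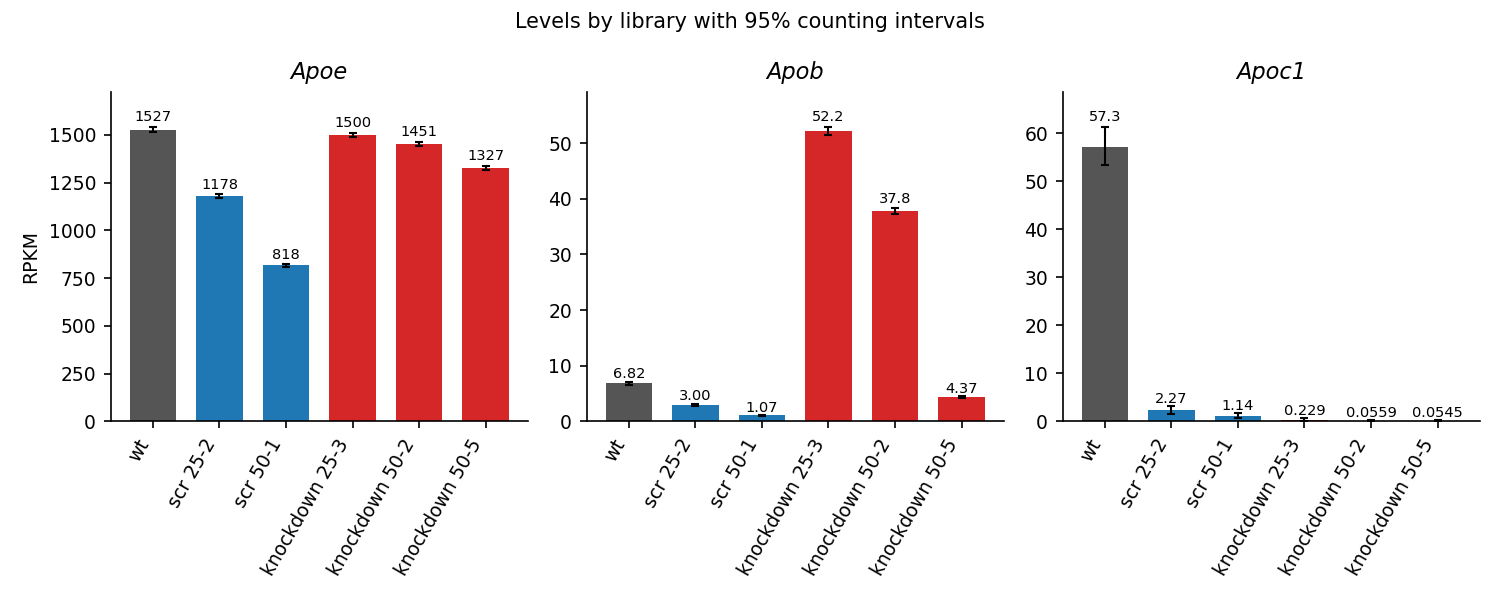
RPKM of Apoe, Apob and Apoc1 in each library on linear axes that start at 0, with bars for the value and whiskers for the 95% counting interval of the reads. Apob is high in knockdown 25-3 and 50-2 (52.2 and 37.8) but not in knockdown 50-5 (4.37), and Apoc1 is high in wt (57.3).

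Apoc2 (chromosome 7, 19671579 to 19677941, minus strand), the cofactor that lipoprotein lipase needs, had an RPKM of 2.12 in wt, 0.836 and 2.72 in scr against 1.99, 1.90 and 2.23 in knockdown. The knockdown and wt values all lay between those of the scr libraries. The log2 fold change was 0.19 (SE 0.532, edgeR FDR 0.841), and it turned to -0.41 without scr 25-2 and was 1.27 without scr 50-1. Its counts, 20 to 63 per library, may be incomplete. The read-through model Gm44805 had 0 counts in every library, and in GENCODE M21 it shares 646 of the 813 exon bases of Apoc2, so reads on shared exons may have been left uncounted.

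Apoa2 (chromosome 1, 171221564 to 171226379, plus strand), a high-density lipoprotein component, had an RPKM of 2.70 in wt, 2.11 and 1.13 in scr against 1.52, 1.62 and 0.904 in knockdown. The groups overlapped, and the log2 fold change was -0.28 (SE 0.450, edgeR FDR 0.717). It turned to 0.26 without scr 25-2. The gene overlaps Tomm40l, on the opposite strand, over 951 bases. In GENCODE M21, where Apoa2 has 537 exon bases, their exons share none. The Apoa2 model that was counted has 936 exon bases, and its overlap with the exons of Tomm40l was not checked.

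The other 5 members did not pass the filter. Apoa1 (chromosome 9, 46228630 to 46230469), the main protein of high-density lipoprotein and the activator of Lcat, had an RPKM of 1.59 in wt, 0.206 and 0.107 in scr against 0.545, 0.376 and 0.0306 in knockdown. The corresponding counts were 41, then 6 and 3, then 17, 12 and 1. The wt library was above all others, and the scr values lay within the range of the knockdown libraries. Apoa5, which raises the activity of lipoprotein lipase, had 15 reads in wt, 2 and 51 in scr against 4, 4 and 3 in knockdown. Here a single library, scr 50-1, stood apart from its own group by 26.3-fold (counting interval 6.93 to 223). Apoh, a phospholipid-binding plasma glycoprotein, had 0 to 3 reads per library, at or under a floor of 3 counts.

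Apoa4, an apolipoprotein of chylomicrons, and Apoc3, an inhibitor of lipoprotein lipase, had 0 reads in all 6 libraries. With a floor of 3 counts, a count of 0 at these depths allows an RPKM of up to 0.0544 to 0.0691 for Apoa4 and up to 0.122 to 0.154 for Apoc3, for counting error only. Without a filter on level, 18673 genes were tested and 7.32% were called. Of the members that this added, Apoa1 (log2 fold change 0.98, FDR 0.604), Apoa5 (-3.0, FDR 0.162) and Apoh (0.63, FDR 0.761) were not called.

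Ordered by level per length, Apoe led in every library. In scr, Apob (2.03 ± 1.36), Apoc2 (1.78 ± 1.33), Apoc1 (1.70 ± 0.798) and Apoa2 (1.62 ± 0.693, all SD, n = 2) followed and did not differ beyond their spread. In knockdown, Apob (31.5 ± 24.5) was followed by Apoc2 (2.04 ± 0.170), Apoa2 (1.35 ± 0.388), Apoa1 (0.317 ± 0.262) and Apoc1 (0.113 ± 0.10, all SD, n = 3), of which Apoa1 and Apoc1 lay within their spread. In wt the order was Apoe, Apoc1, Apob, Apoa2, Apoc2 and Apoa1.

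**Figure D3:**
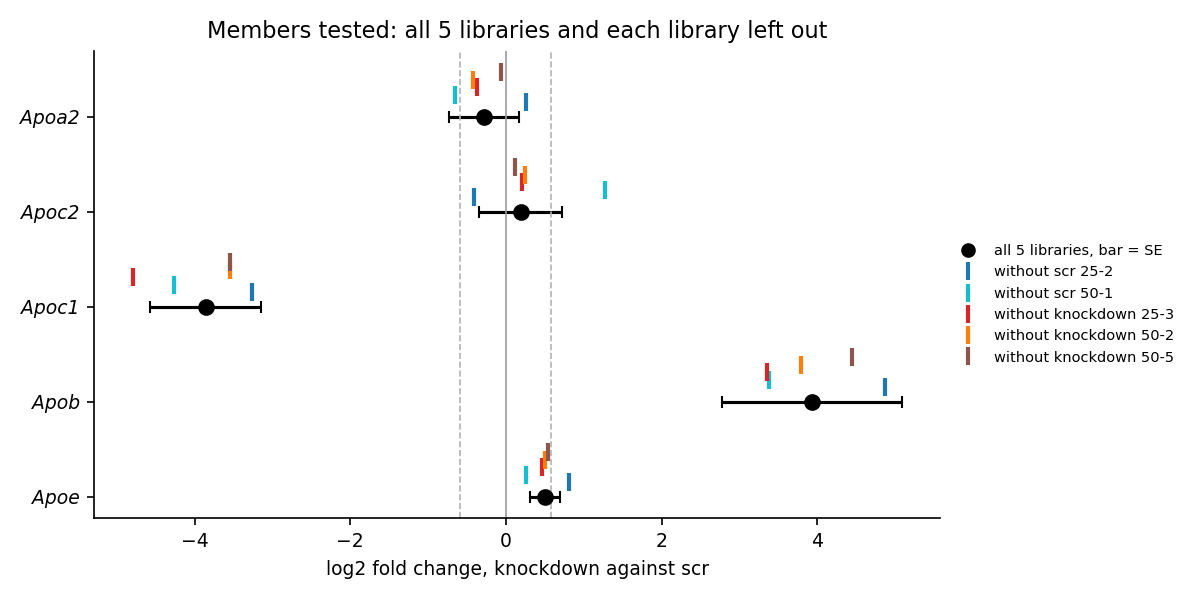
Log2 fold change of knockdown against scr for each tested member, with all 5 libraries (black point, bar for the SE) and with each library left out (coloured ticks). Dashed lines mark 1.5-fold. Apoc1 stays below 0 and Apob above 0 in each, whereas Apoa2 and Apoc2 lie on both sides of 0.

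Apoe made up 95.6% of the summed RPKM of the members in wt, 99.3% and 99.2% in scr, and 96.4%, 97.2% and 99.4% in knockdown. The make-up of the remainder differed between the groups. Without Apoe, Apob held 9.64% of the remaining RPKM in wt, 35.2% and 15.6% in scr, and 92.2%, 90.3% and 56.7% in knockdown. The means were 25.4 ± 13.8% (SD, n = 2) in scr and 79.7 ± 20.0% (SD, n = 3) in knockdown. The groups did not overlap, but such non-overlap was not counted for shares in other gene sets, so it has no background. The shares of a library depend on one another, so less Apoc1 alone raises the share of Apob. Without Apoe the summed RPKM was 70.7 in wt, 8.53 and 6.87 in scr against 56.6, 41.9 and 7.70 in knockdown. Knockdown 50-5 thus lay between the scr libraries in this sum, and its share of 56.7% was an Apob RPKM of 4.37. Apoc1 held 80.9% of the remainder in wt, 26.6% and 16.6% in scr, and 0.404%, 0.133% and 0.708% in knockdown. Apoc2 took 39.6% in scr 50-1 and 29.0% in knockdown 50-5, the libraries in which Apob was lowest within its group.

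**Figure D4:**
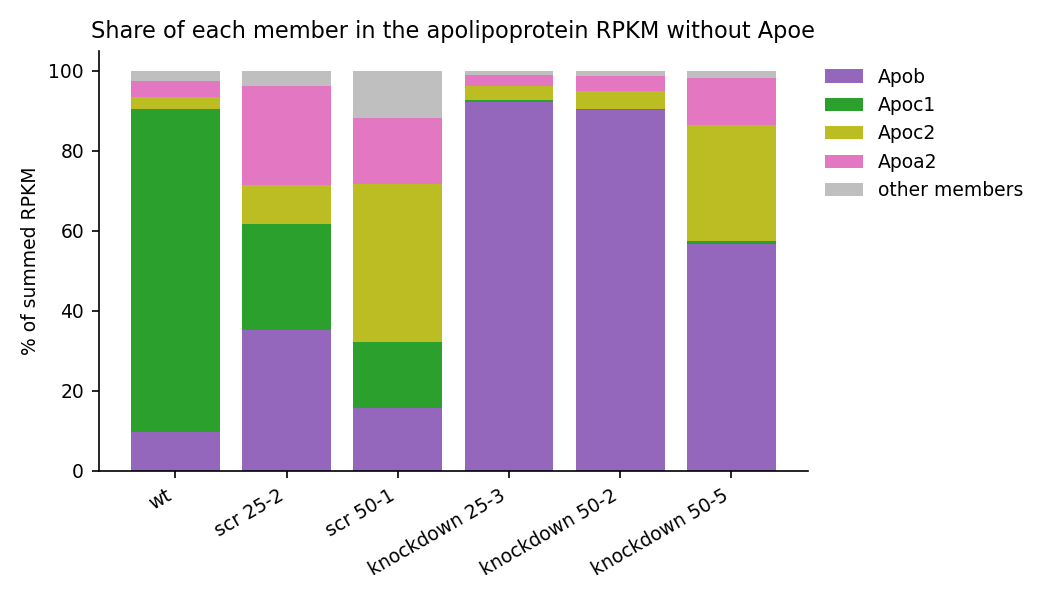
Share of the summed apolipoprotein RPKM, without Apoe, that each member held in each library, in percent, as stacked bars. Apoc1 takes 80.9% in wt, and Apob takes 92.2%, 90.3% and 56.7% in knockdown 25-3, 50-2 and 50-5.

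Members did not move as a block across the libraries. Over the 6 libraries, Pearson's r of log2(RPKM + 0.1) was 0.79 between Apob and Apoe, 0.85 between Apoa1 and Apoa2, -0.34 between Apob and Apoc1, and 0.027 between Apoc1 and Apoe. The libraries share their groups, so these values are descriptions. Of 11646 genes, those whose pattern was most like that of Apoe were Uba3 (r = 0.996), Eefsec and Il17rc (r = 0.993 each), and 80 genes had an r over 0.95. Those most like Apob were Kti12 and Pkig (r = 0.995 each) and Wdr91 (r = 0.988), and 65 genes had an r over 0.95.

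Members lie in 2 groups of neighbours in the genome. Apoc2, Apoc1 and Apoe lie within 27.6 kb on chromosome 7 (19671579 to 19699188), together with Apoc4, and Apoa1, Apoc3, Apoa4 and Apoa5 lie within 43.3 kb on chromosome 9 (46228630 to 46271921). On chromosome 7, Apoc1 fell while Apoe and Apoc2 did not pass the test and Apoc4, another small apolipoprotein, rose. Apoc4 had an RPKM of 72.7 in wt, 34.7 and 34.1 in scr against 59.6, 56.0 and 54.5 in knockdown (log2 fold change 0.71, SE 0.142, edgeR FDR 0.0362). Its call was lost without scr 50-1 (FDR 0.0627) and without any 1 of the knockdown libraries (0.0984 to 0.145), as with an added term for the 25 or 50 of the titles (0.0608), and with wt counted as a control the log2 fold change was 0.27 (FDR 0.575). Gm44805 shares 119 of its 2537 exon bases.

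Within 250 kb of the chromosome 7 members, 16 further genes were tested, of which 3 rose and 0 fell, with a median log2 fold change of 0.42, beside the 10.6% called among all genes tested. For 10 of the 16, all knockdown libraries lay above both scr libraries, and for 0 all lay below. Among all 11577 genes tested, this held for 2974 above and 2832 below. Among those that did not pass were Nectin2 (1.62, FDR 0.071) and Tomm40 (0.51, FDR 0.0565). The 3 that rose were Apoc4, Relb, a subunit of NF-kappaB (log2 fold change 1.65, FDR 0.0164), and Pvr, a cell adhesion receptor (1.08, FDR 0.0340). Relb lost its call without any 1 of the knockdown libraries (FDR 0.0548 to 0.0736), and Pvr lost it without scr 25-2 (0.0564) and without any 1 of the knockdown libraries (0.0647 to 0.11), as with the added term for 25 or 50 (0.0581). Apoc1 fell, as no tested neighbour did. Near the other members, no tested neighbour was called. These were 3 on chromosome 9 (median log2 fold change 0.080), 17 on chromosome 1 (0.17), Ldah next to Apob (-0.0020) and Cep112 next to Apoh (0.59).

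**Figure D5:**
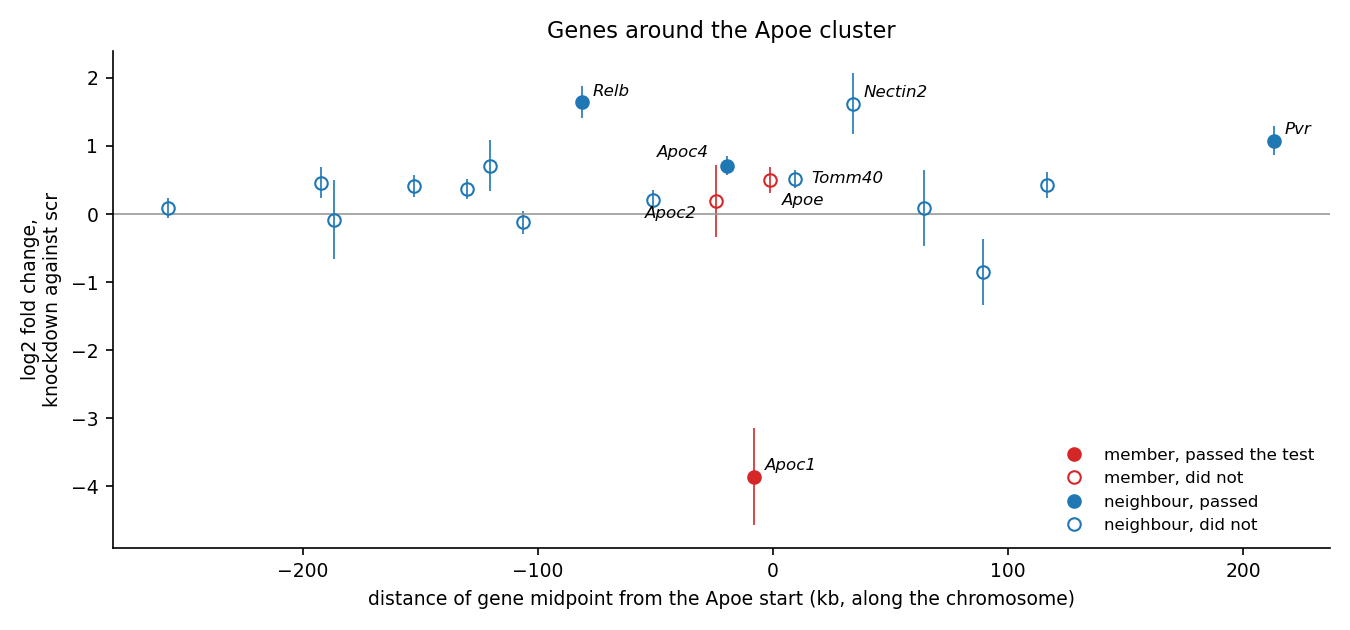
Log2 fold change of knockdown against scr, with its SE, for the members (red) and the other tested genes (blue) within 250 kb of the chromosome 7 members, against the distance of each gene's midpoint from the start of Apoe in kb. Filled points passed the test. Apoc1 lies at -3.86, while the 3 called neighbours lie between 0.71 and 1.65.

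The other genes of the lipoprotein pathway were counted from 4 lists, to be read beside the 10.6% called among all genes tested. Of 22 other apolipoproteins and apolipoprotein-like genes, 6 were tested, 1 rose (Apoc4) and 0 fell (16.7% called), with a median log2 fold change of 0.33. Clu, a multifunctional apolipoprotein of that list, had an RPKM of 528.5 in wt, 584.3 and 310.3 in scr against 726.7, 914.5 and 343.8 in knockdown and was not called. Of 13 genes for the assembly, editing and secretion of Apob, 11 were tested, 0 rose and 1 fell (9.09% called, near that background), with a median of -0.34. The one that fell was A1cf, the RNA-binding cofactor of Apob mRNA editing, with an RPKM of 4.13 in wt, 1.90 and 3.31 in scr against 0.315, 0.358 and 0.135 in knockdown (log2 fold change -3.29, SE 0.476, edgeR FDR 0.0168). The editing enzyme Apobec1 had 16.6 and 12.8 in scr against 8.46, 16.4 and 5.92 in knockdown. Mttp, which loads lipid onto Apob, had 13.3 in wt, 1.68 and 3.04 in scr against 2.16, 1.72 and 1.16 in knockdown, and its part in the level of Apob was not tested. A1cf passed the filter on level only through the scr libraries, and it lost its call without knockdown 25-3 or 50-2 (FDR 0.0745 in both).

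Of 26 genes for the remodelling and uptake of lipoproteins, 20 were tested, 2 rose and 2 fell (20.0% called against 10.6% of all), with a median log2 fold change of -0.48. Those that fell were Lpl, the lipase that Apoc2 activates (76.9 and 148.3 in scr against 17.4, 14.8 and 13.7 in knockdown, log2 fold change -2.89, FDR 0.00777), and Lrp1, a receptor for Apoe (36.4 and 41.8 against 6.94, 7.06 and 6.67, -2.52, FDR 0.00212). Those that rose were Angptl4, an inhibitor of Lpl (3.46 and 2.88 against 14.1, 32.0 and 18.6, 2.75, FDR 0.0173), and Scarb1, the high-density lipoprotein receptor (11.4 and 17.1 against 26.8, 30.4 and 35.8, 1.11, FDR 0.0394). Lrp1 kept its call without each library in turn, Lpl lost it without knockdown 50-2 (FDR 0.0548) and Angptl4 without knockdown 50-5 (0.0575). Scarb1 lost it without any 1 of the knockdown libraries (0.0912 to 0.132).

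Of 28 transcription factors known to act on apolipoprotein genes, 23 were tested, 1 rose and 1 fell (8.7% called, near the 10.6% of all), with a median log2 fold change of -0.17. Ppargc1a, a coactivator of nuclear receptors, had an RPKM of 0.304 and 0.0320 in scr against 4.14, 4.07 and 5.97 in knockdown (log2 fold change 4.79, SE 0.865, edgeR FDR 0.0284), and it passed the filter on level only through the knockdown libraries. The size of this change rested on the scr libraries, at 7.18 without scr 25-2 and 3.94 without scr 50-1, and it was 2.29 with limma on log2(RPKM + 1). Rora, a nuclear receptor, had 3.21 and 6.32 in scr against 1.25, 1.46 and 2.13 in knockdown (-1.57, SE 0.356, FDR 0.0479). Both lost their call without any 1 of the knockdown libraries (FDR 0.0903 to 0.101 for Ppargc1a and 0.0795 to 0.169 for Rora), and Rora also without scr 50-1 (0.0973). Hnf4a, which activates many apolipoprotein genes in hepatocytes, had 29.1 in wt, 33.9 and 11.0 in scr against 65.5, 65.4 and 29.6 in knockdown (log2 fold change 1.23, FDR 0.206). The log2 fold change became 2.28 without scr 25-2 and 0.65 without scr 50-1, in fits that leave a single scr library. Knockdown 25-3 and 50-2, the libraries with high Apob, were also the 2 with the highest Hnf4a, and the part of Hnf4a in the level of Apob was not tested.

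Most markers of other cell types were at an RPKM of 1 or less in every library. Of 9 macrophage and other leukocyte markers, Cd3e was at 0 and 2 passed an RPKM of 1 in any library (Cd68 and Csf1r), with a summed RPKM of 4.47 in wt, 4.48 to 4.91 in scr and 9.18 to 14.2 in knockdown. Of 8 fibroblast and stellate cell markers, 2 passed (Dcn and Pdgfra), with sums of 1031 in wt, 562.0 to 594.5 in scr and 410.9 to 575.6 in knockdown, nearly all of it Dcn. Pdgfra rose, with an RPKM of 0.308 and 0.167 in scr against 2.70, 1.90 and 1.58 in knockdown (log2 fold change 3.10, FDR 0.014), and it passed the filter only through the knockdown libraries. Its wt value was 1.93, with wt counted as a control its log2 fold change was 1.37 (FDR 0.295), and it lost its call without knockdown 25-3 (0.0559) or 50-2 (0.0701). Of 6 endothelial markers, Lyve1 was at 0 and the sums were 2.89 in wt, 0.163 to 0.173 in scr and 0.147 to 0.371 in knockdown. The 5 enterocyte markers, 2 of which passed, summed to 45.4 in wt, 22.2 to 43.6 in scr and 52.0 to 67.9 in knockdown. The enterocyte sum was nearly all Vil1 (42.5 and 20.9 in scr against 51.1, 67.2 and 60.3 in knockdown), while Fabp2 (0.845 and 0.727 against 0.295, 0.192 and 0.282) and Lct lay lower in every knockdown library, Sis lay higher and Alpi overlapped. The leukocyte sum, Vil1 and Pdgfra were higher in every knockdown library than in both scr libraries, as Apob and Apoe were, and their part in those levels was not tested. Other markers of the same lists differed. The leukocyte sum was mostly Cd68 and Csf1r, and Lyz2 and Ptprc also lay higher, but Cd79a overlapped and Adgre1, Marco and Tyrobp had no reads in knockdown. Of the fibroblast and stellate cell markers, Acta2 and Col3a1 lay lower in every knockdown library, and Dcn overlapped.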

How the data were processed

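RNA-seq of 6 Hepa1-6 libraries was analysed, 1 wt, 2 scr and 3 knockdown. Per the labels and the paper, the authors used TopHat2 for alignment to mm10 and HTSeq for counting reads on genes (0.6.1p1 in the submitters' processing notes). The deposited counts are not normalized, and the deposited RPKM values were scaled by the authors with TMM. The strand and overlap settings of the counting are not given in the sources used here, so overlapping genes are uncertain. Library columns were matched to samples by name.

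Counts were tested with edgeR 4.0.16 in R 4.3.3 (quasi-likelihood test, TMM, Benjamini-Hochberg adjustment over all genes tested) between all 3 knockdown and both scr libraries, for genes whose RPKM exceeded 1 in any of these libraries. A call needed an FDR under 0.05 and a change of at least 1.5-fold. Standard errors are the log2 fold change over the root of the F statistic. The wt library entered no main test. The common biological coefficient of variation was 0.272. Counting error is small beside it for Apoe and Apob but not for members with few reads. Alternatives were DESeq2 1.42.0, other size factors and filters, limma 3.58.1 on log2(RPKM + 0.1) and log2(RPKM + 1), other sets of libraries, an added term for the 25 or 50 of the titles, and each library left out in turn.

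The members and the lists were chosen with earlier results of these data known. Genes named besides the members were Midn, the defining markers Alb, Afp and Hnf4a, up to 4 called genes per pathway list with the largest changes, up to 3 called neighbours per cluster, and the 3 genes with the highest correlation to Apoe and to Apob. Apobec1, Mttp, Clu, Ldah, Cep112, Nectin2, Tomm40, Serpina1a, Gm44805, Tomm40l and the markers of other cell types were added after their values were seen. One gene of a pathway list is not reported here. Python 3.11.15 with matplotlib 3.10.9 was used for figures.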

Additional observations from a re-analysis of the deposited data

Results flagged for a closer look

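In the single wt library, which entered no main test, 4 members had an RPKM above that of both scr libraries, beyond the 95% counting intervals of the reads. These were Apoe at 1527, Apoc1 at 57.3, Apob at 6.82 and Apoa1 at 1.59. The share of all genes for which wt lay above both scr libraries was not computed, so this count of members has no background to be read against. The ratio of wt to the pooled scr libraries was 33.4 for Apoc1, 10.1 for Apoa1 and 3.33 for Apob, and wt was 1.53 times the scr mean for Apoe. Those intervals cover counting error only, and the scr libraries differed from each other beyond it as well, by 2.79 times for Apob and 1.44 times for Apoe. With 1 wt library these differences have no replicate check, and transduction, puromycin selection and isolation of colonies cannot be told apart from one another in them. With 2 scr and 3 knockdown libraries, no group was large enough to look for single outlying samples.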

How the results depend on the processing

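In all 16 alternatives to the comparison of knockdown with scr, Apob stayed higher and Apoc1 lower. The 4 libraries the paper tabulates and leaving out knockdown 50-5 are the same fit, counted under both names. The number of genes called moved from 1230 to 346 with the 4 libraries the paper tabulates, to 807 with an added term for the 25 or 50 of the titles and to 2322 with DESeq2, and ranged from 131 to 2273 when each library was left out. Members called were 2 with DESeq2 and 0 to 2 when each library was left out. Apob was called with the 4 libraries (log2 fold change 4.45) and with DESeq2 (3.94), and Apoc1 lost its call with the 4 libraries (-3.54). Leaving out each library gave log2 fold changes of 3.35 to 4.88 for Apob, -4.79 to -3.27 for Apoc1, 0.26 to 0.81 for Apoe, -0.65 to 0.26 for Apoa2 and -0.41 to 1.27 for Apoc2. Over all alternatives Apoc1 ran from -7.39 with wt added to the controls to -1.25 with limma on log2(RPKM + 1). Without scr 25-2, Apoa2 turned to 0.26 and Apoc2 to -0.41. Apart from the smaller number of libraries in these fits, the cause was not tested. The share of Apob in the summed RPKM was 0.191% in scr and 2.07% in knockdown with Apoe, and 25.4% and 79.7% without it.

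No paired analysis was possible because no replicate name recurs between the groups and the 25 and 50 of the titles are not explained. With that number as an added term, the log2 fold change was 4.2 for Apob (FDR 0.0836), -3.73 for Apoc1 (FDR 0.0329) and 0.57 for Apoe (FDR 0.11). Depth limits Apoc1 in knockdown, where a library had 1 to 4 reads, Apoa1 and Apoa5 in the libraries with few reads, and Apoh throughout.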
